A study of Mus musculus with 30 samples.

Results

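The miR-130/miR-301 family is a group of microRNAs that share 1 seed, the bases near the 5′ end that pair with target mRNAs. Its members were taken by symbol from the small-RNA tables of 5 mouse organs: Mir130a, Mir130b, Mir301 (the precursor of miR-301a) and Mir301b, 4 of 2194 named features. All 4 were listed in every organ. The libraries came from 3 Ftsj1_DF mice, which are deficient in Ftsj1, and 3 WT mice. Ftsj1 is an X-linked methyltransferase that modifies the ribose of tRNA anticodon loops. All 6 mice were male and 4 months old, had no special treatment, and came from 2 sets of brothers. Whole brain, heart, kidney, liver and spleen of each animal gave 30 small-RNA libraries, 3 per genotype and organ. Ftsj1 is not a feature of these tables, so the deficiency could not be checked here.

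MicroRNAs are cut from hairpin precursors, and 1 arm is loaded into Argonaute to repress mRNAs with a site complementary to the seed. Members that share a seed share most predicted targets, so the sum of a family's reads and its make-up are both of interest. Each feature here is a precursor symbol, so its count does not separate the arms of the hairpin. The other arm of each member does not carry the family's seed. Sums and shares below are therefore of reads per precursor, not of molecules with the seed. The miR-130/miR-301 family is known from work on vessel and lung biology, where its members act in endothelial and smooth muscle cells and repress, among others, the receptor PPARG. Members are also known in blood cell development and in several tumours.

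The mature 3p sequences carry the family's definition and are shown first, with bases 2 to 8, the seed, in capitals. They are from RefSeq (build GRCm38.p6), as is the hairpin that stands in for the fourth member, whose 3p arm has no mature entry in the table used; in the hairpin the capitals mark the same 7 bases.
miR-130a-3p: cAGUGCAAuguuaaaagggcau
miR-130b-3p: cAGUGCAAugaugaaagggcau
miR-301a-3p: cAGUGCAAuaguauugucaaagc
Mir301b hairpin: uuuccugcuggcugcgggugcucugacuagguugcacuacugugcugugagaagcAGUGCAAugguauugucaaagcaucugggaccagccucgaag

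The 4 arms begin alike and then part into 2 pairs. Counted from the 5′ end, miR-130a-3p and miR-130b-3p were identical at 20 of 22 bases, and miR-301a-3p and the Mir301b arm at 22 of 23. Across the pairs, miR-130a-3p shared 12 of 22 positions with miR-301a-3p. Full-length reads of the 4 arms can therefore be told apart, but the first pair by 2 bases and the second by 1, and how the authors' counting treated reads that match several precursors is not given in the sources used here.

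In GRCm38.p6 the hairpin of Mir130a lies at chr2:84741115-84741178 on the minus strand, where the annotation has no other gene. Mir301 lies at chr11:87113004-87113089 on the plus strand, in the protein-coding gene Ska2 and outside its exons. Mir130b at chr16:17124061-17124142 and Mir301b at chr16:17124400-17124496 sit on the minus strand, 257 bases apart, within 2610318N02Rik and outside its exons. The family thus comes from 3 loci, and Mir130b and Mir301b form the only pair of neighbours.

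The deposited tables give a mean, a log2 fold change and its standard error per feature, but no value per library, and they do not say which genotype is on top of the fold change. A deposited mean adds up whole reads, each scaled by the depth (size factor) of its library. This allowed the reads of all 20 member-organ pairs to be recovered as 1 exact solution each, 54382 reads in all. An organ's 3 libraries in which more reads mean a higher fold change form its positive side, and its remaining 3 libraries its negative side. Which side is Ftsj1_DF is not known, and a library could not be assigned to a mouse. In heart, kidney and liver 1 of the 3 WT libraries belongs to sequencing batch 2, 3 libraries in all, and since they could not be picked out there is no within-batch value: that batch and the genotype cannot be told apart. Size factors differed by 1.92 times between the deepest and the shallowest library in kidney and by 4.31 times in liver, the extremes of the 5 organs. In liver the positive side held the 3 shallow libraries (0.4999 to 0.7290) and the negative side the 3 deep ones (1.45 to 2.15).

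The organ labels were set against marker microRNAs in ppm (the share of an organ's summed means, scaled to a total of 1000000). The neuronal Mir9-2 had 61631 ppm in brain and at most 417 ppm elsewhere, the muscle Mir1a-1 74513 ppm in heart, the hepatocyte Mir122 261607 ppm in liver, Mir10a 63812 ppm in kidney and the lymphocyte Mir150 10937 ppm in spleen, each the highest organ for that feature. The erythroid Mir451a is listed at 0 in every organ, while its neighbour Mir144 had between 71.3 and 2281 ppm.

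Level across organs came first. A small-RNA read spans a whole mature molecule, so levels are given per read, as ppm, and not per base. The tables were normalized separately for each organ, so differences between organs are described and not tested. In bulk tissue fewer cells of a type and less RNA per cell cannot be told apart.

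Mir130a was highest in liver. It had 82.4 ppm in liver, 71.3 ppm in kidney, 55.8 ppm in heart, 40.4 ppm in spleen and 27.6 ppm in brain, a 2.99-fold span. That span depends on the scaling: it was 9.87-fold with organs scaled by the median ratio of all features and 6.69-fold in shares without the 10 most abundant features, in the same order of organs. Single libraries ran from 45.1 to 101 ppm in liver, from 53.5 to 77.7 ppm in kidney and from 16.5 to 38.0 ppm in brain. In ppm every pair of neighbours in that order had overlapping library ranges; under those 2 scalings kidney lay clear of heart and spleen clear of brain. In liver Mir130a was the 119th most abundant of 724 microRNA symbols with reads.

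Mir130b, the neighbour of Mir301b, was highest in spleen and lowest in liver, where Mir130a was highest. It had 140 ppm in spleen, 65.5 ppm in brain, 20.005 ppm in heart, 7.27 ppm in kidney and 2.82 ppm in liver, a 49.5-fold span (18.8-fold by median ratio, 34.8-fold without the 10 most abundant features). The 6 spleen libraries (119 to 151 ppm) lay above the 6 brain libraries (49.0 to 86.4 ppm), brain above heart (16.3 to 22.5 ppm) and heart above kidney (1.98 to 11.2 ppm). Kidney and liver (1.67 to 4.44 ppm) overlapped, as did heart and kidney by median ratio. In ppm its spleen level was the highest of any member in any organ, while by median ratio Mir130a in liver stood 1.56-fold above it.

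Mir301, which yields miR-301a, was lower than the leading member in each organ. It had 17.9 ppm in brain, 16.4 ppm in spleen, 13.3 ppm in kidney, 7.09 ppm in heart and 3.11 ppm in liver. Brain was 5.75-fold above liver, all neighbouring organs overlapped, and brain and spleen differed by 1.09-fold. Their order is not firm: scaled by the median ratio of all features across organs, kidney came first and heart last, 2.93-fold apart.

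Mir301b was the scarcest member in each of the 5 organs. It had 3.29 ppm in spleen and 2.12 ppm in brain, where every library held reads, and 0.260 ppm in heart, 0.101 ppm in kidney and 0.012 ppm in liver. The heart and kidney values rest on 26 and 12 reads in 3 libraries each, and the liver value on 1 read in 1 library. With reads and depth pooled over libraries, the level was 0.00757 ppm in liver, with an exact 95% Poisson interval of 0.000192 to 0.0422, and 3.12 ppm (2.71 to 3.56) in spleen. A liver library with 0 reads allows up to 3 reads, which is 0.0735 to 0.317 ppm depending on its depth. These intervals and limits cover counting error only, and reads without molecular identifiers are not independent molecules.

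**Figure D1:**
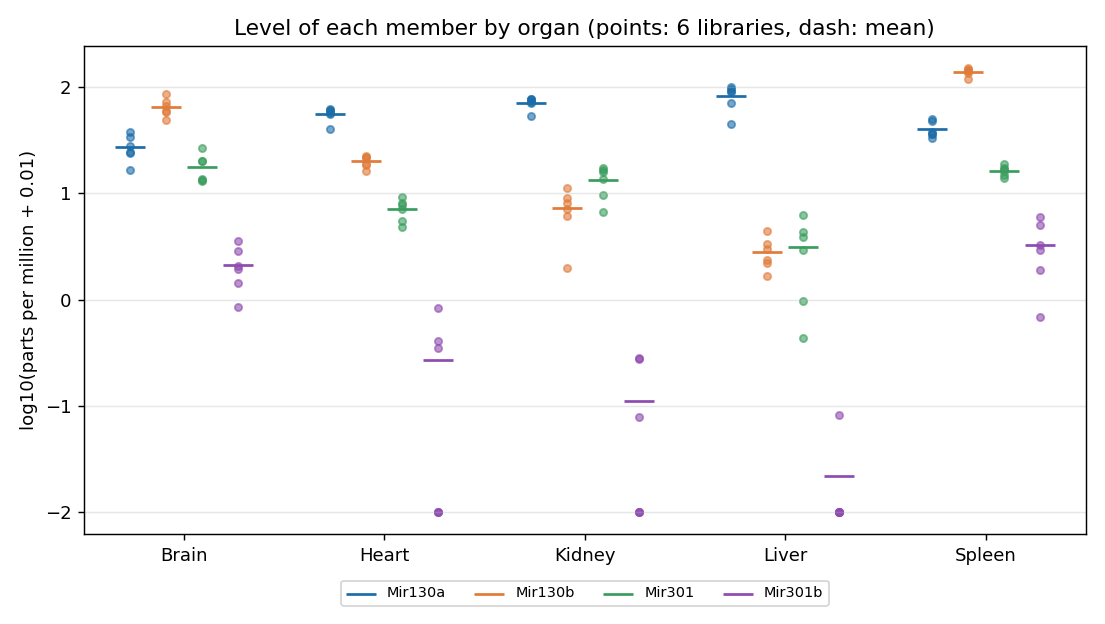
Level of each member in the 5 organs, as log10 of ppm plus 0.01, with 6 libraries per organ as points and their mean as a dash. Mir130b has 140 ppm in spleen and 2.82 ppm in liver, whereas Mir130a has 40.4 ppm in spleen and 82.4 ppm in liver; points at the bottom are libraries with 0 reads of Mir301b.

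The summed family was highest in spleen in ppm, with 200 ± 6.61 ppm (SD, n = 6 libraries). Brain had 113 ± 5.70 ppm, kidney 91.9 ± 13.7 ppm, liver 88.4 ± 22.0 ppm and heart 83.2 ± 7.64 ppm. The lowest spleen library had 189 ppm and the highest library of any other organ 121 ppm, so in ppm spleen stood clear of the rest, while kidney, liver and heart overlapped. That place depends on the scaling: by the median ratio of all features liver came first, 1.17-fold above spleen with overlapping libraries, and without the 10 most abundant features spleen stayed 1.59-fold above liver. Spleen was 2.40-fold above heart in ppm, and heart was the lowest organ under each scaling. The coefficient of variation over the 6 libraries of the sum was 3.31% in spleen and 5.04% in brain, against 24.9% in liver. In brain it was smaller than that of each member, which ran from 19.6% for Mir130b and 27.8% for Mir130a to 46.2% for Mir301b. This was not particular to brain, since the sum also varied less than each member in heart, liver and spleen. In kidney the sum varied by 14.9%, more than Mir130a did.

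The make-up of the family split the organs in 2 groups. Mir130b supplied 69.9 ± 4.02% of the family's reads in spleen and 57.7 ± 9.47% in brain (SD, n = 6 libraries each). Mir130a supplied 93.2 ± 1.25% in liver, 77.8 ± 4.28% in kidney and 66.9 ± 5.03% in heart. The 2 ranges did not meet: Mir130a's share was at most 34.3% in any brain or spleen library and at least 57.9% in any heart, kidney or liver library. Shares within a library do not depend on its size factor. Ligation and amplification efficiencies can differ between sequences, so a ratio of 2 members is one of reads.

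**Figure D2:**
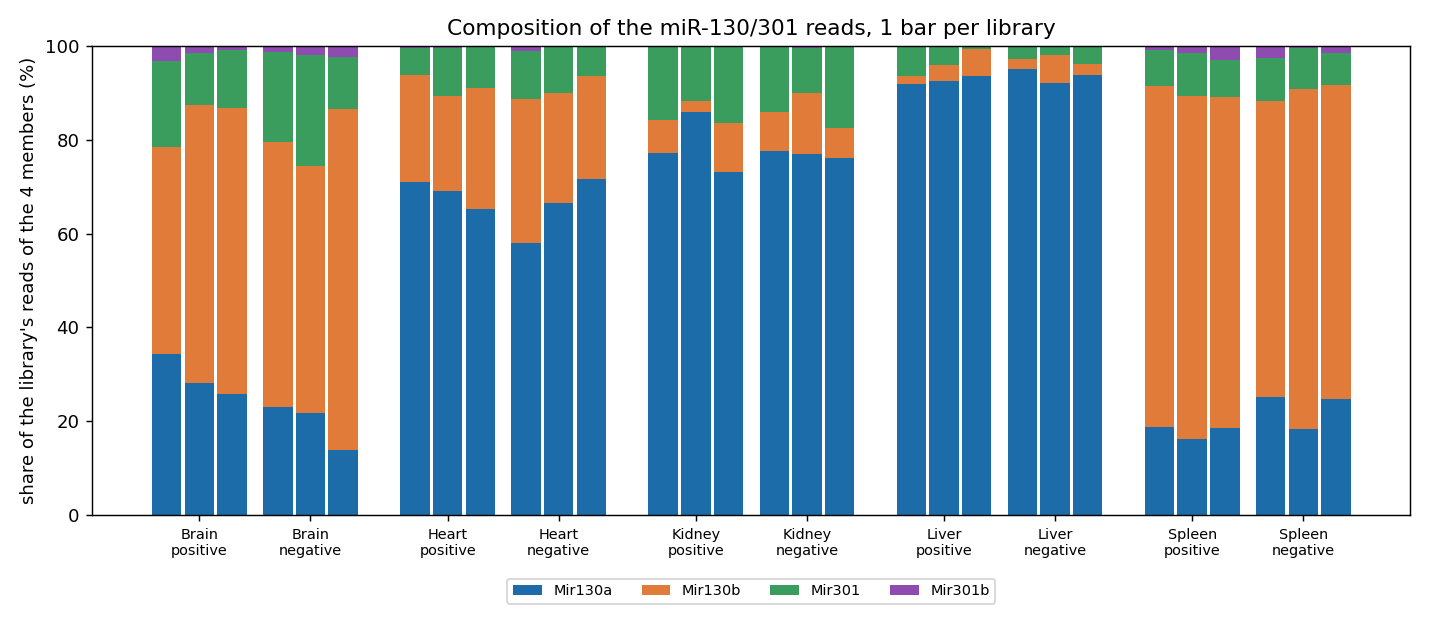
Share of each member among a library's reads of the 4 members, in percent, with 1 bar per library and the 3 positive-side libraries left of the 3 negative-side libraries of each organ. Mir130b makes up most of each brain and spleen bar except where Mir130a and Mir301 together exceed it in 1 brain library (Mir130b 44.2%), and Mir130a makes up at least 57.9% of each heart, kidney and liver bar.

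The order of the 2 leading members held in each library. Mir130b exceeded Mir130a in 6 of 6 brain libraries, with a median ratio of 2.41 (1.29 to 5.23), and in 6 of 6 spleen libraries, with a median ratio of 3.85 (2.50 to 4.53). It was below Mir130a in all 6 libraries of heart, kidney and liver, with median ratios of 0.338, 0.0994 and 0.0293.

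The neighbours Mir130b and Mir301b kept a wide gap in reads. Summed over libraries, Mir130b had 6552 reads to 244 of Mir301b in brain, a ratio of 26.9, and 9408 to 213 in spleen, a ratio of 44.2. Heart gave 1255 to 26 and kidney 933 to 12. Single spleen libraries ran from 23.8 to 214, and the highest ratio rests on 8 reads of Mir301b. Whether the ratio of these 2 hairpins, 257 bases apart, varied between libraries beyond counting error was not tested. Mir301 passed Mir130b in 5 of 6 kidney libraries and 4 of 6 liver libraries and in none of brain, heart or spleen.

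Across the 5 organs Mir130a ran against the other members. The Pearson correlation of log2(ppm + 1) was -0.88 with Mir130b, -0.75 with Mir301 and -0.87 with Mir301b, and it was 0.95 between Mir130b and Mir301b and 0.78 between Mir130b and Mir301. With organs scaled by the median ratio, that of Mir130a with Mir301 was -0.26 and that of Mir130b with Mir301 0.37. These are descriptions over 5 organ means that share a denominator within each organ. Among the 326 features with a mean of at least 10 in all 5 organs, those most like Mir130a were Mir455 (0.95), Mir192 (0.88) and Mir22 (0.87). Those most like Mir130b were Mir3069 (0.98), Mir669c (0.98) and Gm54609 (0.98), those most like Mir301 were Mir501 (0.97), Mir98 (0.96) and Mir421 (0.95), and those most like Mir301b were Mir669o (0.996), Mir669c (0.98) and Mir7015 (0.98). Mir130b itself stood at place 8 in the list for Mir301b. In heart, kidney and liver Mir301b was below the mean that this filter asks for, with at most 0.260 ppm. On the scale of log2(ppm + 1) these organs hardly differ, so its correlations mostly set brain and spleen against the others.

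The genotype contrast asks whether members differ between Ftsj1_DF and WT animals of an organ. No member passed the authors' DESeq2 Wald test at an adjusted p of 0.05 in any organ. The authors' deposited tables give the members adjusted p-values of 0.9752 to 0.997 over the 19 of 20 pairs that have one, and 1 of 20 pairs an unadjusted p below 0.05. Over all features, the share past that adjusted threshold was 0% for brain, kidney and spleen, 1.13% for heart and 0.229% for liver. The share with an unadjusted p below 0.05 in the authors' deposited tables was 2.23% for brain, 5.33% for heart, 4.5% for kidney, 3.9% for liver and 3.48% for spleen. The fold change was positive in 13 of 20 pairs and negative in 7. Over all features with a fold change, it was positive for 507 of 1030 in brain and 641 of 1107 in heart. The counts were 530 of 1025 in kidney, 459 of 877 in liver and 605 of 1208 in spleen. The 13 include Mir301b in liver and kidney, on 1 and 12 reads, and the 7 include it in heart, on 26 reads. For the 17 pairs with a mean of at least 10, the authors' deposited tables hold log2 fold changes from -0.34 to 0.62, with standard errors of 0.22 to 0.95. Below, a log2 fold change is given with its standard error after the ± sign, and it is the positive side over the negative side.

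**Figure D3:**
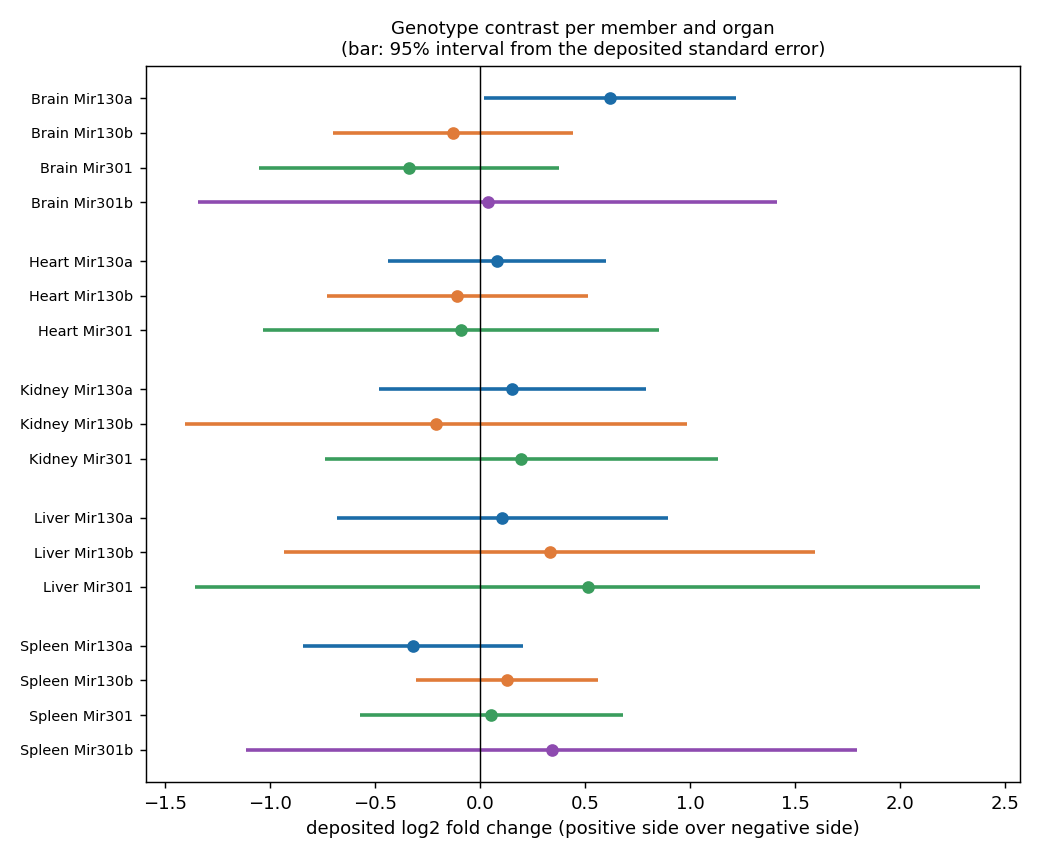
Log2 fold change of each member in the authors' deposited tables, positive side over negative side, with its 95% interval, for the 17 member-organ pairs with a mean of at least 10. The interval of Mir130a in brain (0.02 to 1.22) lies above 0 and the other 16 include 0.

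Mir130a in brain was the pair with an unadjusted p below 0.05. The positive-side libraries had 612, 548 and 455 normalized counts (1178, 663 and 332 reads), against 396, 390 and 266 normalized counts (450, 292 and 197 reads) in the negative-side libraries. The 2 sides did not overlap, with means of 538 ± 79.2 on the positive side, against 351 ± 73.2 on the negative side (SD, n = 3 each). The exact two-sided permutation p was 0.1, the smallest that 3 against 3 libraries can give. The authors' deposited table puts the log2 fold change at 0.62 ± 0.31 (standard error), with a DESeq2 Wald p of 0.0437 before and 0.989 after adjustment. Of 1030 brain features, 2.23% reached such an unadjusted p. Of the 285 brain features with a mean of 10 to 600 whose reads were recovered, 11.2% had sides that did not overlap.

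The difference rests on several libraries and is not large against them. Leaving out 1 library at a time, the log2 fold change ran from 0.45 to 0.73. The unadjusted p, from a Wald test with the deposited dispersion, was between 0.0336 and 0.185, and it was above 0.05 without the positive-side libraries at 612 (0.133) or 548 (0.0773) or without the negative-side library at 266 (0.185).

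The other brain members did not follow Mir130a. Mir130b had 789, 1158 and 1081 normalized counts in the positive-side libraries and 968, 949 and 1393 in the negative-side libraries. The highest library was on the negative side, and the ranges overlapped. The authors' deposited table has it at -0.13 ± 0.29 on the log2 scale. Mir301 had 327, 216 and 219 normalized counts on the positive side, against 328, 427 and 211 on the negative side, with overlapping sides. There the authors' deposited table has a log2 fold change of -0.34 ± 0.36. Mir301b had 57.7, 31.4 and 13.7 normalized counts on the positive side, against 22.9, 33.4 and 45.9 on the negative side, with the lowest and the highest library both on the positive side.

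The summed family did not separate the brain sides. It averaged 1836 ± 102 normalized counts in the positive-side libraries and 1810 ± 101 in the negative-side libraries (SD, n = 3 each, exact permutation p = 0.7). Mir130a's share of it was 34.3%, 28.0% and 25.7% in the positive-side libraries and 23.1%, 21.7% and 13.9% in the negative-side libraries. The sides of this share did not overlap, as those of the normalized counts did not, with an exact permutation p of 0.1. The share uses the same Mir130a reads and no size factors.

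**Figure D4:**
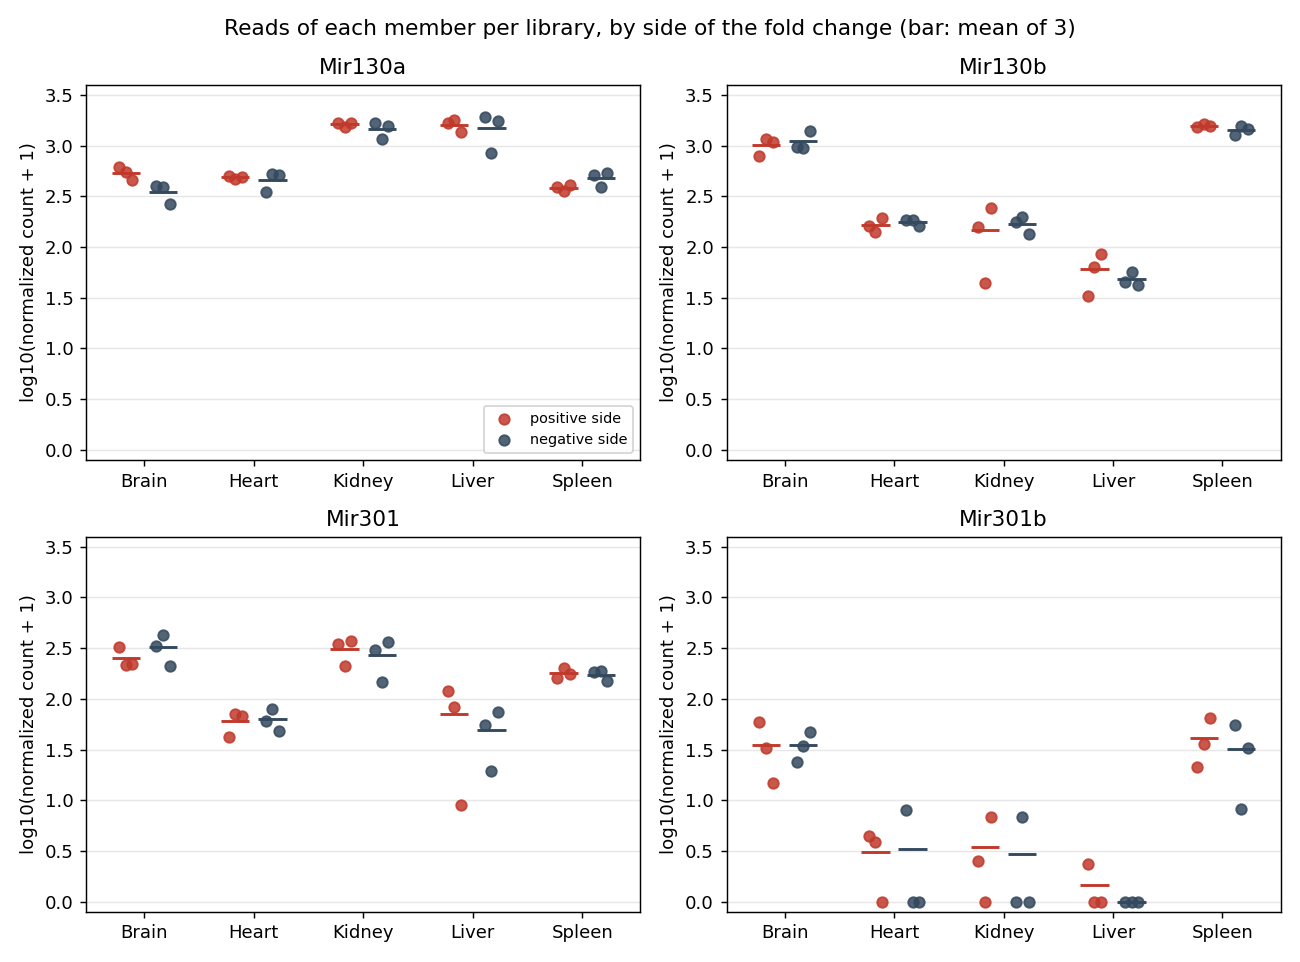
Normalized counts of the 4 members in 30 libraries, as log10 of the count plus 1, with the 3 positive-side libraries left of the 3 negative-side libraries of each organ and the mean of each as a bar. Mir130a in brain has 455 to 612 normalized counts on the positive side, against 266 to 396 on the negative side, and the other pairs overlap.

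In spleen Mir130a leaned the other way. The positive-side libraries had 393, 358 and 406 normalized counts and the negative-side libraries 512, 390 and 542. A negative-side library at 390 lay within the positive-side range, so the sides overlapped, and the exact permutation p was 0.3. Its log2 fold change is -0.32 ± 0.27, by the authors' deposited table. Mir130b, the leading spleen member, had 1526, 1621 and 1548 normalized counts on the positive side, against 1279, 1553 and 1464 on the negative side. These sides overlapped between 1526 and 1553, and the exact permutation p was 0.3. By the authors' deposited table this is a log2 fold change of 0.13 ± 0.22. Mir301 had 161, 202 and 175 normalized counts on the positive side, against 182, 187 and 148 on the negative side. Mir301b had 20.4, 35.0 and 63.7 on the positive side, against 53.7, 7.25 and 31.7 on the negative side, an 8.78-fold span within 6 libraries. Spleen features of a mean of 10 to 600 had sides that did not overlap in 11.4% of cases, and no member did.

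In heart the sides lay close together. Mir130a had 504, 471 and 486 normalized counts in the positive-side libraries and 346, 524 and 518 in the negative-side libraries. The positive side lay inside the range of the negative side, where 1 library was low, and the authors' deposited table puts the log2 fold change at 0.079 ± 0.27. Mir130b had 162, 139 and 192 on the positive side, against 184, 186 and 159 on the negative side, and Mir301 had 41.0, 69.3 and 66.1 on the positive side, against 59.97, 78.8 and 46.7 on the negative side. Both overlapped. Reads of Mir301b numbered 8, 2 and 0 in the positive-side libraries and 16, 0 and 0 in the negative-side libraries, and a contrast on so few was not read. In heart 12.7% of recovered features had sides that did not overlap, and no member did.

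Kidney showed wide spreads for Mir130b. Mir130a had 1683, 1529 and 1693 normalized counts on the positive side, against 1664, 1166 and 1580 on the negative side, which overlapped. The authors' deposited table lists 0.15 ± 0.32 on the log2 scale. Mir130b had 155, 43.2 and 243 normalized counts on the positive side, against 177, 197 and 134 on the negative side. The positive side held both the lowest and the highest library, 5.64-fold apart, and without the lowest the log2 fold change was 0.23, against -0.21 in the authors' deposited table. Mir301 had 344, 208 and 374 on the positive side, against 300, 145 and 363 on the negative side. In kidney 11.2% of recovered features had sides that did not overlap, and no member did.

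In liver the 2 sides differed in depth. Mir130a had 1691, 1814 and 1350 normalized counts in the positive-side libraries and 1919, 855 and 1738 in the negative-side libraries, with the lowest and the highest both on the negative side. Its log2 fold change is 0.11 ± 0.40 according to the authors' deposited table. Mir130b had 31.6, 63.2 and 84.0 normalized counts on the positive side, from 23, 38 and 42 reads, and 44.1, 56.0 and 41.3 on the negative side, from 95, 86 and 60 reads. Mir301 had 118, 81.5 and 8.00 normalized counts on the positive side, from 86, 49 and 4 reads, and 54.8, 18.2 and 73.0 on the negative side, a 14.7-fold span over 6 libraries. The library with 4 reads had the lowest size factor of the organ. For Mir301 the authors' deposited table has 0.51 ± 0.95 on the log2 scale, and without the positive-side library at 118 the value was -0.12. Mir301b had 1 read in a positive-side library and none in the other 5. In liver 10% of recovered features had sides that did not overlap, and no member did.

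The precision of the contrasts of Mir130a in brain, Mir130b in spleen and Mir301 in liver was set beside that of features of like level. The standard error of Mir130a in brain (0.31) stood beside a median of 0.32 over the 30 brain features within 1.5 times its mean, in the authors' deposited table. For Mir130b in spleen it was 0.22 beside 0.27, and for Mir301 in liver 0.95 beside 0.79. The 95% interval of the fold of Mir130b in spleen, from the authors' deposited table, was 0.810 to 1.48, the narrowest of the 20 on the log2 scale. That of Mir130a was 1.01 to 2.33 in brain, 0.736 to 1.52 in heart, 0.717 to 1.73 in kidney, 0.624 to 1.86 in liver and 0.557 to 1.15 in spleen. An adjusted p near 1 therefore does not show that a member was equal on the 2 sides: with 3 libraries a side, differences inside these intervals were not excluded.

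**Figure D5:**
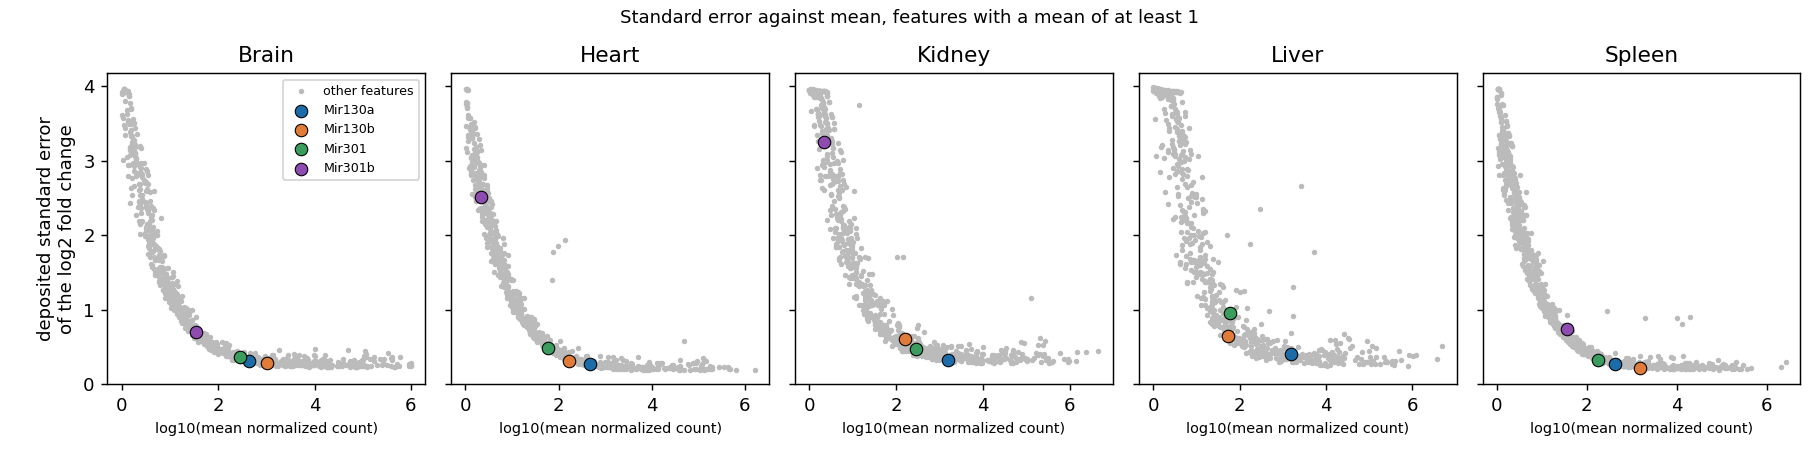
Deposited standard error of the log2 fold change against log10 of the mean normalized count, per organ, for features with a mean of at least 1, with the members in colour. The members lie in the band of other features of their mean, from 0.22 for Mir130b in spleen to 3.24 for Mir301b in kidney.

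Whether a contrast differed between organs was tested with Cochran's Q on the log2 fold changes of the authors' deposited tables, for 648 features with a standard error in all 5 organs. The test takes the organs as independent although they come from the same 6 mice, and takes the same genotype to be on top in each table. Mir130a gave Q = 5.34 on 4 degrees of freedom, place 112 of 648 by size of p, with a Benjamini-Hochberg adjusted p of 1.00. Mir301 gave Q = 1.34, Mir130b Q = 1.03 and Mir301b Q = 0.420, each with an adjusted p of 1.00. At an adjusted p of 0.05 no member passed, nor did any other feature (0% of 648); before adjustment 2.93% lay below 0.05. A difference of the Mir130a contrast among the 5 organs was therefore not shown. Q does not compare its positive value in brain (0.62) and its negative value in spleen (-0.32) on their own. That pair stands out only after seeing the values and was not tested. Averaged over organs with inverse-variance weights, the log2 fold change was 0.098 ± 0.14 (standard error) for Mir130a, 0.0058 ± 0.15 for Mir130b, -0.036 ± 0.19 for Mir301 and 0.20 ± 0.49 for Mir301b. These standard errors also take the organs as independent, although the organs come from the same mice.

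Other mouse microRNAs with the same bases 2 to 8 added next to nothing. Of 1679 mature sequences in the RefSeq table, 7 (0.417%) have the seed AGUGCAA, and 4 of them come from precursors outside the family: Mir130c, Mir721, Mir6341 and Mir6389. They are shown to make the shared start visible, with bases 2 to 8 in capitals.
miR-130c: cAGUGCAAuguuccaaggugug
miR-721: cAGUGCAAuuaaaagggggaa
miR-6341: cAGUGCAAugauauugucacuau
miR-6389: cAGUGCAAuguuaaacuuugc

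All 4 are listed at 0 in brain and liver. Together they had 0.033 ppm in heart, 0.139 ppm in kidney and 0.1296 ppm in spleen, beside 83.2, 91.9 and 200 ppm of the family. Mir130c had 4 reads in heart, 3 in kidney and 9 in spleen, and Mir721 had 17 reads in kidney.

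Families whose seed overlaps this one by a shift of 1 base were set beside it, since their targets can overlap in part. The miR-148/152 family shares CAGUGCA with miR-130a-3p, starting at base 2 instead of base 1, and the miR-19 family shares GUGCAA, starting at base 2 instead of base 3. Bases 2 to 8 are in capitals.
miR-148a-3p: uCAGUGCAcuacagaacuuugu
miR-19b-3p: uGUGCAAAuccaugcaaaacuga

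Mir148a, Mir148b, Mir152, Mir19a, Mir19b-1 and Mir19b-2 were all measured in each organ, and together they were more abundant than the miR-130/miR-301 members, with 46102 ppm in liver, 22299 ppm in spleen, 5028 ppm in heart, 3650 ppm in kidney and 1533 ppm in brain. Mir148a, known as abundant in hepatocytes, alone had 44014 ppm in liver. Most of the sum came from Mir148a, Mir148b and Mir152 in every organ. Mir19a, Mir19b-1 and Mir19b-2 together were below the miR-130/miR-301 sum in brain, heart and kidney and above it in liver and spleen. None of the 6 passed an adjusted p of 0.05 in any organ, in either direction. By the authors' deposited tables their median log2 fold change was 0.40 for heart, 0.22 for kidney, 0.12 for brain, 0.093 for liver and 0.065 for spleen, beside medians of -0.012, -0.033, -0.0028, 0.0074 and -0.00025 over all features with a mean of at least 10. At an unadjusted p below 0.05 the authors' deposited tables have 2 of 6 in heart, Mir19b-1 at 0.82 ± 0.38 and Mir19b-2 at 0.62 ± 0.31 on the log2 scale, where 5.33% of features had such a p. In spleen Mir19b-1 was the only such feature of the list, at 0.77 ± 0.27, beside 3.48% of features; its adjusted p was 0.988 by the DESeq2 Wald test. Mir19b-1 and Mir19b-2 give the same mature 3p sequence, so their reads may be shared or split by the authors' counting and each value is uncertain; Mir19b-2 in spleen stands at -0.050 ± 0.27 in the authors' deposited table.

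MicroRNAs of vessel cells were listed because the family is known from vessels. Of 8 symbols 7 are in the tables and 6 had reads, Mir126b being listed at 0. Mir126a of endothelium had 53083 ppm in heart, 27911 ppm in kidney, 18040 ppm in liver, 14043 ppm in spleen and 6559 ppm in brain. Mir143 of smooth muscle had 253559 ppm in spleen, 211451 ppm in kidney, 191053 ppm in heart, 56185 ppm in liver and 32199 ppm in brain. In ppm neither order of organs is that of a miR-130/miR-301 member. Other microRNAs of the list had other orders. Mir145a of smooth muscle was highest in heart, at 4531 ppm. In ppm Mir221 and Mir222 were highest in brain and lowest in liver, as Mir301 was, though the organs between came in another order. None of the 6, which also include Mir145a, Mir221, Mir222 and the hypoxia-induced Mir210, passed an adjusted p of 0.05 in any organ, in either direction, and the smallest unadjusted p in the authors' deposited tables belonged to Mir126a in kidney, where it was above 0.1.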

How the data were processed

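Whole organs of 3 Ftsj1_DF and 3 WT mice were frozen and pulverised, RNA was extracted with a phenol-based reagent, and small-RNA libraries were made with the NEXTflex kit, per the labels' protocols. The authors counted with featureCounts from Subread 2.0.3 on genome GRCm39 and ran DESeq2, as the submitters' processing notes list; no source used here gives the aligner, annotation or rule for multi-mapping reads. The authors deposited 1 table per organ of 2195 rows, of which 1 without a name (at most 1.82e-05% of an organ's total) was left out. The mean the authors deposited is a signal: an organ's average of depth-scaled counts. Fold changes and standard errors are log2 values, per the file headers, and the authors' Wald statistic (a score) comes with a deposited p-value before and after adjustment. Columns with per-sample values left unused numbered 0. No annotation of the authors' build was used, and coordinates are those of GRCm38.p6.

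Size factors were read from features with 1 read. Whole reads, each scaled by the size factor of its library and added up, explained all means below 1 (230 of 230 in brain, 355 of 355 in heart, 280 of 280 in kidney, 227 of 227 in liver, 330 of 330 in spleen). The size factors were taken from among these same means, so part of this count was fixed in advance. A feature's reads are the whole numbers that give its mean to 15 digits and, refitted in the 2-group negative binomial model, its fold change within 1e-09. This held for all 20 member-organ pairs, except that Mir301b in liver, with a mean below 1, had 1 solution for its mean and was not refitted. It also held for 1289 of 1289 feature-organ pairs with a mean of 10 to 600, members included. The model had the genotype as its only term. On simulated reads, 37 of 37 (brain), 36 of 36 (heart), 36 of 36 (kidney), 35 of 35 (liver) and 38 of 38 (spleen) features were recovered and none wrongly. The simulated features were drawn from those with a mean of 10 to 600, so members with a higher mean were outside this check. Mir130a in liver, with a mean of 1561, had 8693569 candidate solutions, of which 1 matched the fold change. Simulated shifts of 6 standard errors in brain were given to 200 of 648 features, with the organs drawn independently. Cochran's Q called 179 of these 200, with 5 false calls. Smaller or rarer shifts were not simulated, so how often they would be called is not known. The total reads per library are unknown here, so depth is given by size factors and by each member's reads.

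The threshold was an adjusted p of 0.05. Named features were the 4 members, precursors with the same bases 2 to 8, the lists of offset seeds and vessel cells, and the 3 features most like each member by Pearson's correlation of log2(ppm + 1). Members and lists were chosen with earlier results of these data known. The p-values measure the spread between 3 libraries of separate animals a side, some of which are brothers. Alternatives were other sets of features for the adjustment, centred fold changes, each library or organ left out, other scalings and other measures of likeness. Python 3.11.15, numpy 2.4.6, scipy 1.17.1, numba 0.67.0 and pandas 2.3.3 were used.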

Additional observations from a re-analysis of the deposited data

Results flagged for a closer look

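Precursors with the family's seed but outside it had more than 3 reads, the limit that a count of 0 allows, in 1 library of 3 organs. Mir721 had 17 reads in 1 negative-side kidney library and 0 in the other 5. Mir130c had 4 reads in 1 positive-side heart library and 0 in the other 5. In spleen Mir130c had 6 reads in 1 negative-side library, and 3 reads in all in the other libraries. No adjusted contrast of these features passed 0.05.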

How the results depend on the processing

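No member passed an adjusted p of 0.05 in any organ when p was adjusted over all features, microRNA symbols, features with a mean of at least 10 or every deposited statistic, or when fold changes were centred. No member's organ difference passed with any 1 organ left out, with the filter or with centring. Without 1 library at a time 11 of 17 fold changes changed sign. The log2 range was -0.24 to 0.074 for Mir130b and -0.60 to 0.39 for Mir301b in brain, -0.099 to 0.17 for Mir130a, -0.23 to 0.0037 for Mir130b and -0.24 to 0.14 for Mir301 in heart, -0.77 to 0.23 for Mir130b and -0.10 to 0.47 for Mir301 in kidney, -0.18 to 0.32 for Mir130a and -0.12 to 1.04 for Mir301 in liver, and -0.040 to 0.13 for Mir301 and -0.16 to 1.03 for Mir301b in spleen. The other 6 kept their sign, with ranges of 0.45 to 0.73 for Mir130a and -0.57 to -0.083 for Mir301 in brain, 0.012 to 0.25 for Mir130a in kidney, 0.0077 to 0.64 for Mir130b in liver, and -0.45 to -0.22 for Mir130a and 0.053 to 0.19 for Mir130b in spleen. Among single members the highest organ changed for Mir301 only, to kidney under median-of-ratios scaling and to spleen without the 10 most abundant features. The log2 ratio of liver to brain for Mir130a was 1.58, and 3.30 and 2.74 under those scalings; that of spleen to liver for Mir130b was 5.63, and 4.23 and 5.12. For the sum of the 4 members, added after seeing the data, the log2 ratio of spleen to liver was 1.18, and -0.22 and 0.67; the cause was not tested. With Spearman correlation 1 of the 3 features most like Mir130a and Mir130b was kept and 0 for Mir301 and Mir301b. Mir301b outside brain and spleen rests on 26 reads or fewer an organ, and Mir130b and Mir301 in the shallow liver libraries on 4 to 86. No paired analysis was possible because libraries could not be assigned to mice.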
